A study of Mus musculus with 7 samples.

Results

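The aquaporin genes described here are 8 of the 12 members of the family that both gene references of the series hold, out of 30406 genes in all: Aqp1, Aqp2, Aqp3, Aqp4, Aqp5, Aqp7, Aqp9 and Aqp11. They were chosen by name, and their unique molecular identifiers (UMIs, each standing for 1 captured RNA molecule) were counted in the single-cell libraries of 23 male mice. Cells were sorted into classes by marker genes alone: secretory cells by the share of UMIs on 7 Svs genes, prostate-like cells by Tgm4 and Pbsn, basal cells by Krt5 and Krt14, endothelial cells by Pecam1, fibroblasts by Col1a1 and Col1a2, smooth muscle by Myh11 and immune cells by Ptprc, Laptm5 and Coro1a. Of 40306 cells kept, 3616 (8.97%) held at least 1 UMI of a member, and the members summed to 9140 UMIs.

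All mice were wild type males, and the tissue of every library was labelled seminal vesicle. The aging pool held 10 C57BL/6J mice on chow, 2 at 3 months, 2 at 20 months, 2 at 28 months, 2 at 20 months with rapamycin and 2 at 28 months with rapamycin. The diet pool held 8 FVB/NJ mice at 3 months, 2 each on a control diet, a high fat diet, a low protein diet and caloric restriction. Within a pool, mice were told apart by a tag on their cells. The diet single libraries were 3 FVB/NJ mice at 3 months, of which 1 ate the control diet, 1 the high fat diet and 1 the low protein diet. The young individual (3 months) and the old individual (18 months) were 1 FVB/NJ mouse each, on the control diet. The tissue was dissociated with enzymes and cells were taken from a density gradient.

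The young individual and the old individual stood apart from the other 21 mice. Svs genes made up 63.5% of the UMIs of secretory cells in the 21 mice, and no cell of these 2 libraries passed the secretory or the prostate-like gate. In their place, 1828 cells passed a gate on Lcn8 and Lcn9 and 2019 a gate on Gpx5, genes known from the epididymis, and no cell of the 21 mice passed either. These values go against the tissue label of the 2 libraries. Values are therefore given for the 21 mice first and for these 2 libraries apart. Kept cells per mouse ranged from 174 to 9160 and UMIs from 971402 to 46326504. Pairs of libraries shared 6 to 30 cell barcodes, at most 0.407% of the smaller library.

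Aquaporins are membrane channels that let water cross along an osmotic gradient. Aqp1, Aqp2, Aqp4 and Aqp5 encode classical water channels, known from vessels, the renal collecting duct, brain and glands in that order. Aqp3, Aqp7 and Aqp9 encode aquaglyceroporins, which also pass glycerol and, for some, urea. Aqp11 encodes a distant member that resides mainly inside the cell. The male accessory glands and ducts make and concentrate fluid, and several aquaporins are known from their epithelia. The pore of a typical aquaporin is lined by a pair of short boxes named NPA after their residues.

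The coding sequence of these boxes is shown because it is what makes the members recognisable as one family, and because its flank differs between Aqp1 and Aqp3, the members with most UMIs below. Each run below holds 27 bases of coding sequence, 5′ to 3′ on the strand of the gene, with the 9 bases of the box in capitals. The positions are those of GRCm38 (mm10) and the sequences those of the GENCODE transcripts.
Aqp1 box 1, exon 1, chr6:55336707-55336733, + strand: gctcacctcAACCCTGCGgtcacactg
Aqp1 box 2, exon 3, chr6:55345828-55345854, + strand: tgcggtatcAACCCTGCCcggtcattt
Aqp2 box 2, exon 3, chr15:99583115-99583141, + strand: tgctccatgAATCCAGCCcgctccctg
Aqp5 box 2, exon 4, chr15:99593261-99593287, + strand: tgttccatgAACCCAGCCcgatctttc
Aqp3 box 1, exon 3, chr4:41094810-41094836, - strand: gcccacttgAACCCCGCTgtgaccttc
Aqp3 box 2, exon 5, chr4:41093832-41093858, - strand: tatgccgtcAACCCTGCCcgtgacttt
Aqp9 box 2, exon 5, chr9:71122841-71122867, - strand: tgtgccatgAACCCTGCTcgagacctc
Aqp11 box 1, exon 2, chr7:97729044-97729070, - strand: gcattgtttAACCCAGCGctggcactt
The second codon after box 2 was tca in Aqp1, tcc in Aqp2 and tct in Aqp5, and gac in the glycerol channels Aqp3 and Aqp9. The coding sequence held 2 such boxes in Aqp1, Aqp2, Aqp3, Aqp4, Aqp5 and Aqp9, 1 in Aqp11 and 0 in Aqp7, whose boxes are known to carry other residues. Boxes are numbered in the order of their matches. The box 1 of Aqp11 is its only match, and the number does not make it the counterpart of box 1 in the other members. Aqp2 and Aqp5 lie 6234 bases apart on chromosome 15, and Aqp7 and Aqp3 lie 44582 bases apart on chromosome 4.

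Of the 8 members, Aqp1 and Aqp3 carried most of the signal in the 21 mice. Aqp1 had 4030 UMIs in 961 cells and Aqp3 807 UMIs in 411 cells. Aqp2 followed with 401 UMIs, but these lay in 34 cells. Aqp11 had 139 UMIs in 127 cells, Aqp5 82 in 33, Aqp9 46 in 35, Aqp7 25 in 22 and Aqp4 4 in 4. The secretory cells, 44.0% of the cells, held 4.5% of the members' UMIs, and the endothelial cells, 1.82% of the cells, held 33.1%. A further 38.8% lay in the 4655 cells that passed no gate. The other 4 genes of the family summed to few UMIs in these mice, at most 24 for Aqp8.

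**Figure D1:**
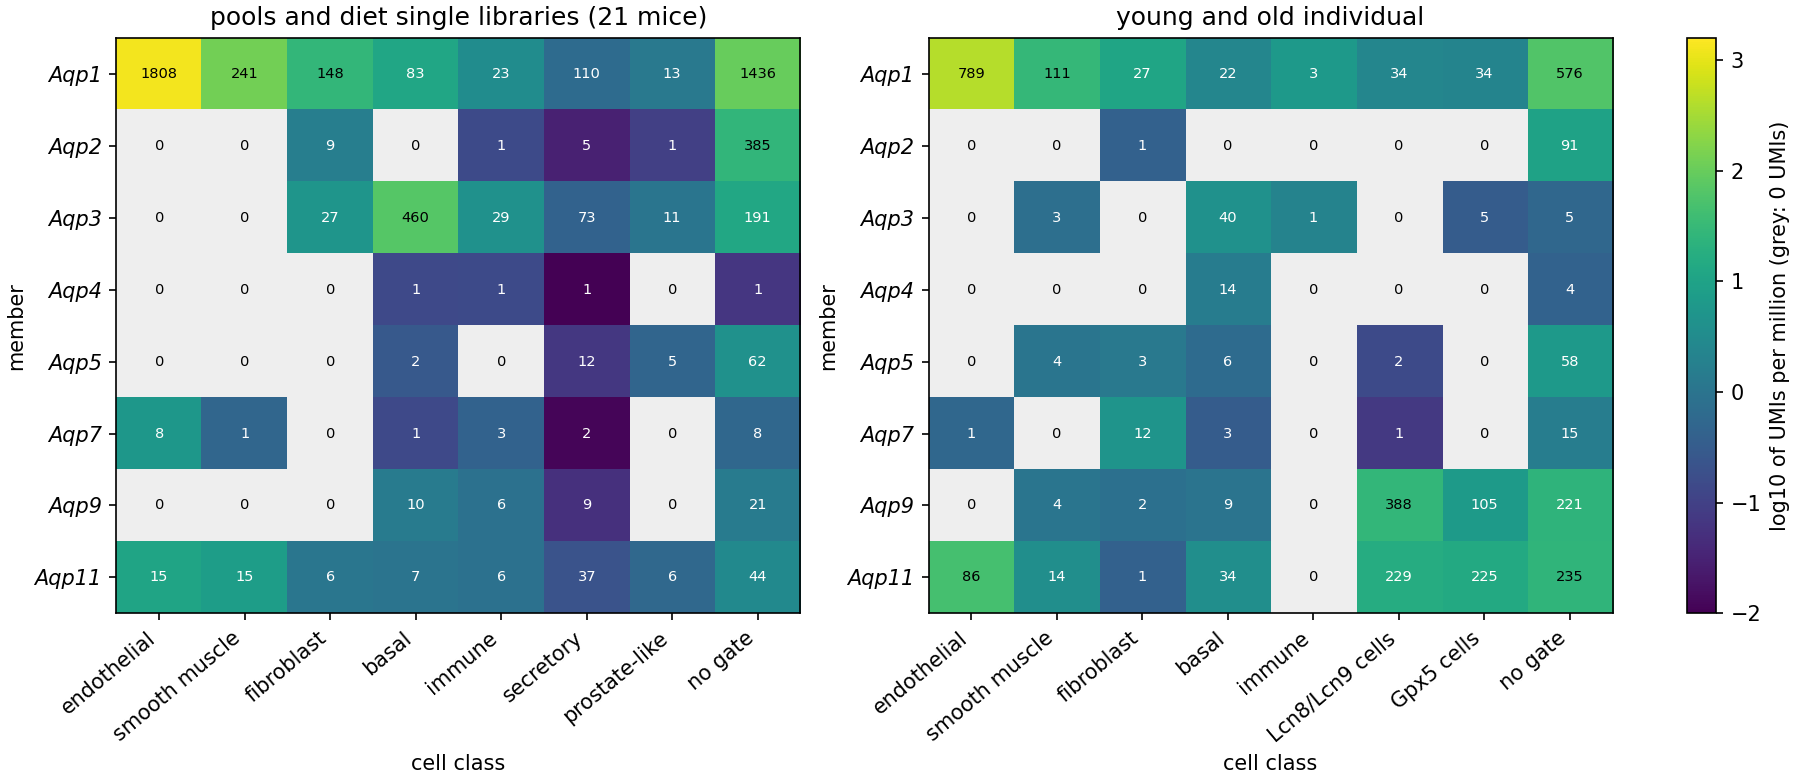
UMIs of the 8 aquaporin genes (rows) in each cell class (columns), summed over the 21 mice of the pools and diet single libraries (left) and over the young and old individual (right). Colour is the log10 of counts per 1000000 UMIs of the class (CPM), grey is 0 UMIs and the number in each tile is the UMI count. Aqp1 stands out in endothelial cells (1808 UMIs), Aqp3 in basal cells (460), Aqp2 in cells past no gate (385), and in the young and old individual Aqp9 in Lcn8/Lcn9 cells (388).

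Aqp1, the water channel of vessel walls, was highest in endothelial cells. Over the 17 mice with at least 10 endothelial cells it stood at 1374 ± 613 (SD) counts per 1000000 UMIs of the class (CPM), with a lowest value of 645, a median of 1179 and a highest of 2623. It was read in 303 of 401 endothelial cells (75.6%, median depth 2062 UMIs per cell), against 62 of 9692 secretory cells (0.640%, median depth 13626). Thinning to 1000 UMIs left out the shallower cells and kept 350 endothelial and all 9692 secretory cells. The shares were then 58.6% and 0.124%. In a fit of all classes over the 21 mice (122 sums, with a term for each mouse), the endothelial level lay 6.87 (SE 0.19) above the mean of the other classes on the log2 scale (edgeR quasi-likelihood test, adjusted p = 2.62e-58). Among sums of at least 10 cells, no other class of these mice reached the lowest endothelial value. Of the 2 members that passed the filter on low counts, Aqp1 and Aqp3, Aqp1 was called higher here, beside 29.8% of all 6880 genes tested.

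Aqp1 was lower in the other classes. The pooled level was 126.7 CPM (95% Poisson interval 111 to 144) in smooth muscle, 27.6 (23.3 to 32.4) in fibroblasts, 11.9 (9.47 to 14.7) in basal cells, 3.34 (2.12 to 5.01) in immune cells, 1.26 (0.672 to 2.16) in prostate-like cells and 0.649 (0.533 to 0.782) in secretory cells. These intervals cover counting error only. Leaving the Svs genes out of the secretory total raised the last value to 1.78. In pairwise contrasts of the same fit, endothelial cells lay above smooth muscle by 3.78 in log2 (SE 0.37, adjusted p = 6.18e-16), beside 47.7% of genes called in either direction. Smooth muscle lay above fibroblasts by 1.63 in log2 (given as fibroblasts minus smooth muscle, -1.63, SE 0.41, adjusted p = 0.000853), beside 34.4%. That step rested on the 2 mice under caloric restriction, which held 200 of the 241 smooth muscle UMIs. In a fit without them, added after these values were seen, fibroblasts minus smooth muscle was -0.03 (SE 0.69, adjusted p = 0.986), while endothelial minus smooth muscle was 5.25 (SE 0.46, adjusted p = 1.69e-17). The pooled smooth muscle level of the 18 other mice with such cells was 48.9 CPM (35.1 to 66.4). Fibroblasts lay above basal cells (basal minus fibroblasts -1.28, SE 0.40, adjusted p = 0.00420, beside 59.8%), and basal above immune cells (1.25, SE 0.57, adjusted p = 0.0447, beside 66.3%). Immune, secretory and prostate-like cells could not be ordered: secretory minus immune was -0.21 (SE 0.62, adjusted p = 0.767, beside 76.4%) and secretory minus prostate-like 1.10 (SE 0.65, adjusted p = 0.150, beside 50.9%).

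**Figure D2:**
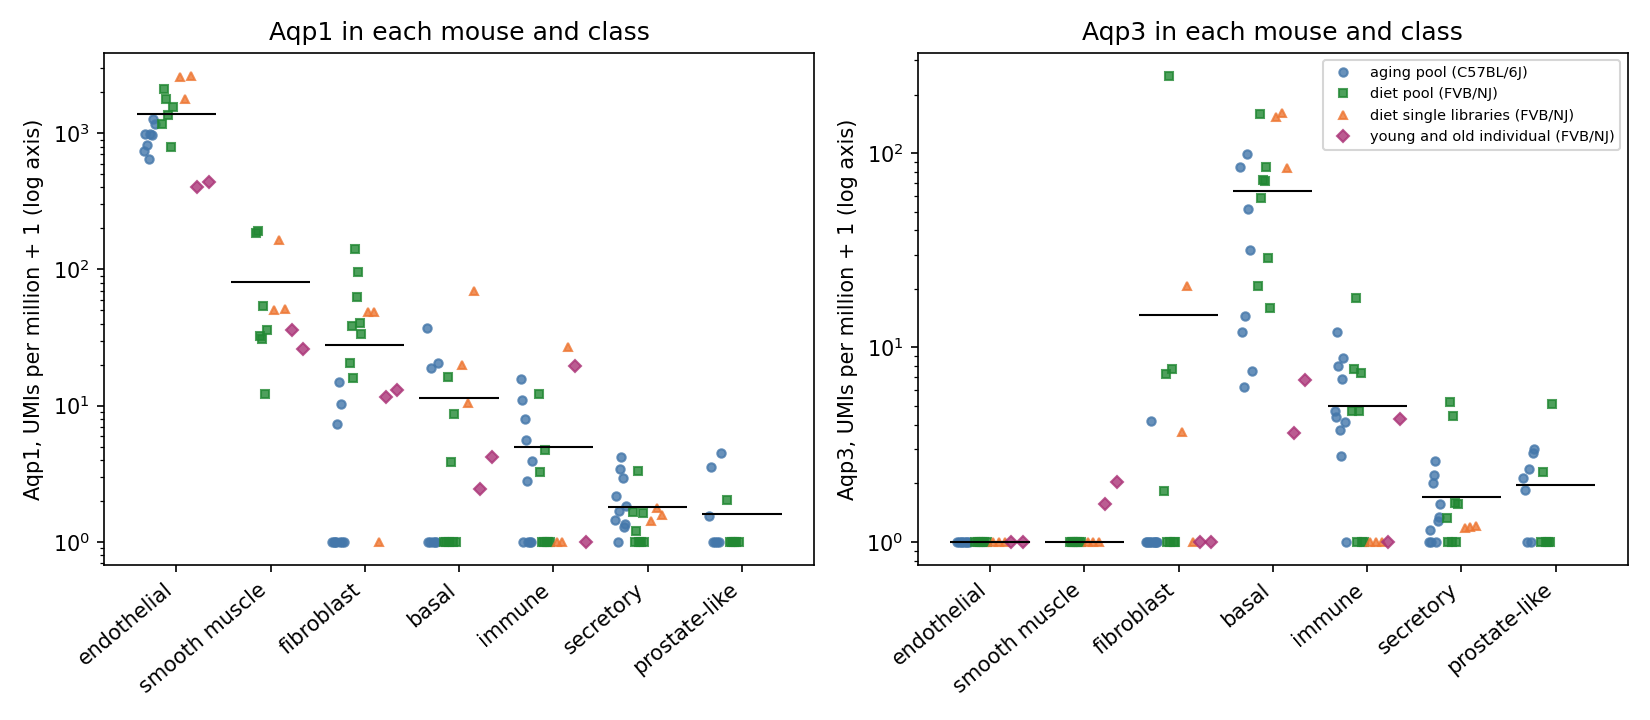
Aqp1 (left) and Aqp3 (right) in CPM plus 1 on a log axis, in each cell class with at least 10 cells, 1 point per mouse, marked by set. Black lines are means over the mice of the pools and diet single libraries. Endothelial Aqp1 runs from 645 to 2623 in these mice and at 436 and 401 in the young and old individual. Aqp3 is at 0 UMIs in every endothelial sum and runs from 5.24 to 159 in basal cells.

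Against the mean of the other classes, Aqp1 was called lower in secretory cells (log2 difference -2.64, SE 0.37, adjusted p = 2.55e-10, beside 38.5% of genes called lower) and in prostate-like cells (-3.92, SE 0.52, adjusted p = 8.76e-11, beside 36.3%). Tgm4 and Pbsn, which define the prostate-like gate, encode secretory proteins of the prostate. In basal cells the difference was -0.93 (SE 0.38, adjusted p = 0.0266, beside 30% of genes called lower), a call that was lost without the filter on low counts (adjusted p = 0.0576), with doubled gates (0.0866), with library size (0.202), without the mouse term (0.0568) and without the mice under caloric restriction (0.192). In fibroblasts it was 0.56 (SE 0.28, adjusted p = 0.0839), and neither member was called there, beside 56.7% of genes called in either direction. The fibroblast difference of Aqp1 was called higher under 5 of the 11 alternatives. One of them was the fit without the mice under caloric restriction, where it was 0.86 (adjusted p = 0.0157).

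Most smooth muscle UMIs of Aqp1 came from a pair of mice. The 2 mice under caloric restriction held 185 and 192 CPM, from 113 UMIs in 113 cells and 87 UMIs in 107 cells. The other mice of the diet pool with at least 10 smooth muscle cells ran from 11.1 CPM in 1 of the low protein mice to 52.9 CPM in 1 of the high fat mice, on at most 5 UMIs each. The 3 diet single libraries held 49.4, 164 and 50.1 CPM on 1, 3 and 1 UMIs. No test was made of this pattern, which was chosen after its values were seen.

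Endothelial cells with at least 2 UMIs of the lymphatic markers Prox1, Mmrn1 and Lyve1 held less Aqp1 than the rest. The pooled level was 869 CPM (789 to 954) in 47 such cells and 1529 CPM (1448 to 1613) in the 345 cells with none of these markers. In 14 of the 16 mice with both kinds the lymphatic part was the lower. Most mice had few lymphatic cells, so this split is a description. In some of the 14, such as mouse 1 at 28 months without rapamycin, the lymphatic part was 1 cell with 0 UMIs. Most of the 47 cells came from the aging pool, where endothelial Aqp1 was lower than in most diet mice. The pooled levels therefore also carry the difference between the sets, which their intervals do not cover. Aqp1 was read in 33 of the 47 and 263 of the 345 cells.

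Among the cells past no gate, 82 cells in 20 mice held 5 or more UMIs of Aqp1. Cdh5, an endothelial cadherin, was read in 70 of them, Pecam1 in 59 and Gpihbp1, a capillary lipoprotein-binding protein, in 54, against 2.27%, 2.20% and 1.63% of the ungated cells without Aqp1. Col1a1 was read in 3 and Ptprc in 3. These genes were chosen after their values were seen. Over the 122 sums, the genes with levels most like Aqp1 were Esam (Pearson r 0.86), Cavin2 (0.86) and Ecscr (0.85), among 12518 genes compared on log2(CPM + 1). The sums share mice and depth, and the order is a description.

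Aqp3, the glycerol and water channel known from the basolateral side of epithelia and from epidermis, was highest in basal cells. Over the 19 mice with at least 10 basal cells it stood at 63.1 ± 51.2 CPM (SD), with a lowest value of 5.24, a median of 57.9 and a highest of 159. It was read in 240 of 1905 basal cells (12.6%, median depth 1836) and in 52 of 9692 secretory cells (0.537%, median depth 13626). Thinned to 1000 UMIs per cell, the shares were 6.10% of the 1607 basal cells deep enough and 0.0103% of the 9692 secretory cells. All 19 mice had at least 1 Aqp3 UMI in basal cells. In the fit over classes Aqp3 was called higher in basal cells (log2 difference 5.25, SE 0.37, edgeR adjusted p = 1.34e-22, beside 32.4% of genes called higher).

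The size of that difference depends on classes in which Aqp3 was not read at all. Endothelial and smooth muscle cells had 0 UMIs in the 21 mice, so the basal level, 66.9 CPM over the sums of the fit, was at least 29.0-fold higher than in endothelial cells and at least 35.0-fold higher than in smooth muscle, taking 3 UMIs over each class as the floor. Against classes with counts, basal minus fibroblasts was 3.51 (SE 0.44, adjusted p = 4.05e-11), beside 59.8% of genes called. Basal minus immune was 3.47 (SE 0.44, adjusted p = 4.23e-11), beside 66.3%. Secretory minus basal was -4.10 (SE 0.38, adjusted p = 1.55e-16), beside 73.4%. Prostate-like minus basal was -4.81 (SE 0.55, adjusted p = 1.76e-12), beside 69%. Below basal cells, fibroblasts and immune cells could not be ordered (-0.04, SE 0.64, adjusted p = 0.964, beside 68.5%). In the fibroblast sums, 14 of 27 UMIs came from 1 cell of 1 control diet mouse, where the level was 247 CPM, and 14 mice had 0 UMIs.

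Aqp3 UMIs were uneven among basal cells too. In 1 of the caloric restriction mice 26 UMIs lay in 3 of 36 cells, and in 1 mouse at 28 months with rapamycin 11 UMIs lay in 1 of 15 cells. In the control diet single library, by contrast, 89 UMIs lay in 56 of 415 cells. In the immune class, 26 of the 29 Aqp3 UMIs lay in cells with at least 2 UMIs of Cd3d, Cd3e and Cd3g, T cell receptor genes, where 23 of 553 cells held it (15.6 CPM, 10.2 to 22.8). Cells with at least 5 UMIs of the macrophage genes C1qa, C1qb and C1qc held 3 (0.995 CPM, 0.205 to 2.91).

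Outside the gates, 21 cells in 14 mice held 2 or more UMIs of Aqp3, 145 UMIs in all. Sprr1a, a cornified envelope gene, was read in 15 of them, Upk1a and Upk1b, uroplakins of the urothelium, in 11 each, Psca in 10 and the basal keratin Krt5 in 12. In ungated cells without Aqp3, Upk1a was read in 0.901% and Psca in 0.726%. Over the 122 sums the genes most like Aqp3 were Tmem171 (Pearson r 0.79), Krt16, a keratin of stratified epithelium (0.74), and Ivl, which encodes the cornified envelope protein involucrin (0.73).

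Aqp2, the water channel that vasopressin regulates in the kidney, was read in few cells, at many UMIs each. Of its 401 UMIs in the 21 mice, 385 lay in cells past no gate, and 92.8% lay in 11 cells with 5 or more UMIs each. Cells with at least 2 UMIs numbered 15 in 10 mice, 12 of them past no gate, and the highest cell held 66. By mouse, the 3 cells of 1 caloric restriction mouse held 95 UMIs, the 2 cells of the other 80, single cells of mice at 28 months 65, 57, 11 and 2, the 2 cells of 1 control diet mouse 41, the 2 of a mouse at 3 months 22, and single cells of mice at 20 months 5 and 4. These cells occurred in both strains and at all ages of the aging pool. In secretory cells Aqp2 had 5 UMIs in 9692 cells.

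The 15 Aqp2 cells shared a distinct set of other genes. Akr1b7, known as the mouse vas deferens protein, was read in 13 at 31113 CPM, against 64.7 CPM in cells of the same mice without Aqp2. Fxyd4, a regulator of the sodium pump, was read in 13 (3083 against 7.05 CPM), Spink8, a protease inhibitor, in 13 (16890 against 192 CPM) and Crisp1, a sperm-binding secretory protein, in 12 (10450 against 139 CPM). The epithelial genes Epcam and Krt8 were read in 9 and 10. Svs5 stood at 1354 CPM in these cells against 128314 in the others, and Gpx5, Lcn8 and Avpr2, the vasopressin receptor, were at 0. Gpx5 was read in 0.054% and Lcn8 and Avpr2 in 0.036% of the cells without Aqp2, so 15 cells cannot show a lack of them. Of 5 cells with at least 2 UMIs of Aqp9, 4 also held Aqp2. The genes are named after their values were seen, so no test is given.

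In the young individual, 8 cells past no gate held 82 Aqp2 UMIs. Akr1b7 was read in all 8 (26955 against 7.77 CPM in its cells without Aqp2), and so were Fxyd4 (1193 against 8.05), Spink8 (45142 against 2472) and Crisp1 (56658 against 2627). Spink8 and Crisp1 were read in 28.0% and 16.2% of the cells without Aqp2 there, and Akr1b7 and Fxyd4 in 0.766% and 1.64%. Gpx5 was read in 4 of the 8 cells (72.3 against 30614 CPM) and Lcn8 in 1, against 35.0% and 9.83% of the cells without Aqp2. The old individual held 2 Aqp2 UMIs in all.

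**Figure D3:**
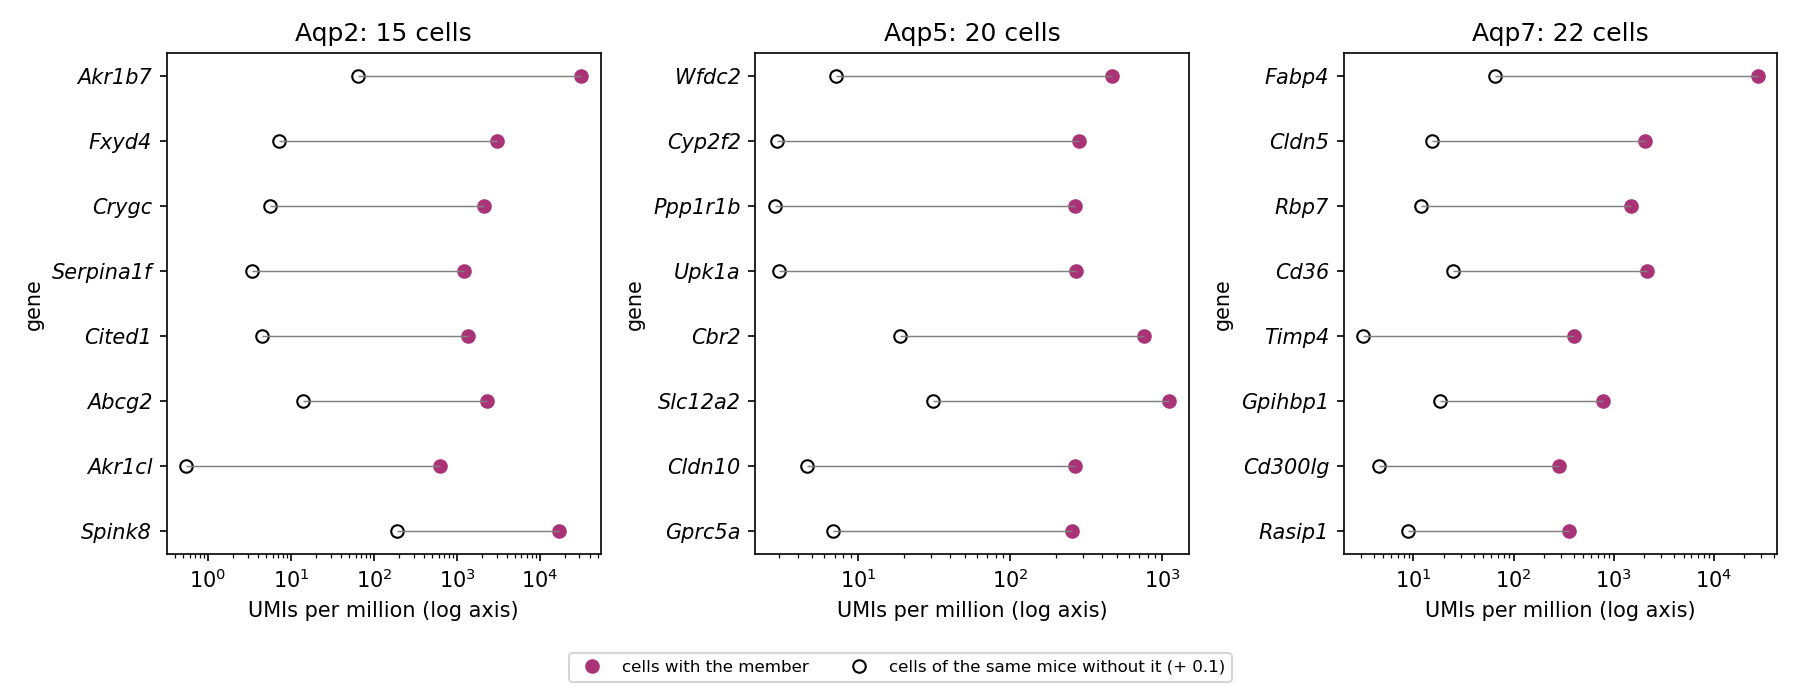
The 8 genes with the highest ratio of levels (5 CPM added to each) in cells with Aqp2 (at least 2 UMIs, 15 cells), Aqp5 (at least 2 UMIs, 20 cells) or Aqp7 (at least 1 UMI, 22 cells) of the 21 mice, among genes read in at least 50% of those cells. Filled points are levels in CPM in these cells and open points those in cells of the same mice without the member (plus 0.1), on a log axis. Akr1b7 (31113 CPM) leads for Aqp2, Wfdc2 (465) for Aqp5 and Fabp4 (27584) for Aqp7.

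Aqp5, the apical water channel of salivary, sweat and lacrimal glands, was read at 2 or more UMIs in 20 cells of 8 mice, 15 of them past no gate. One control diet mouse held 9 of these cells and 35 UMIs, and the other mice 1 or 2 cells each. Slc12a2, the basolateral chloride importer of fluid-secreting cells, was read in 16 of the 20 (1111 CPM against 30.8 in cells of the same mice without Aqp5), Wfdc2 in 13 (465 against 7.08), Upk1a in 12 (270 against 2.92) and Psca in 8 (844 against 5.99). The 20 cells were deeper (median 22148.5 UMIs) than cells without Aqp5 (5797). Svs5 stood at 89176 CPM in them, against 231488 in the others, and Epcam was read in all 20. In secretory cells Aqp5 had 12 UMIs in 4 of 9692 cells.

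In the young and old individual the Aqp5 cells were of another kind. Among 15 cells with at least 2 UMIs, Dcdc2a was read in 14, Ccdc153 and Tmem212, genes of motile cilia, in 9 each and Foxj1, the regulator of motile cilia, in 8. Foxj1 was read in 1.69% of the cells without Aqp5. Psca, Upk1a and Krt4 were at 0 in these 15 cells. In the 21 mice Foxj1 was read in 1 of the 20 Aqp5 cells and Ccdc153 in 0.

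Aqp4, the water channel of astrocyte end-feet, was nearly absent. It had 4 UMIs in the 21 mice and 19 in the young and old individual, 14 of them in basal cells (1.52 CPM, 0.834 to 2.56, 13 of 4015 cells). The basal cells of the 21 mice held 1 UMI among 6979532. At 4 UMIs no order of its classes in the 21 mice could be read.

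Aqp7, the glycerol channel of fat and capillaries, was read in 22 cells of 14 mice. Fabp4, a fatty acid carrier of capillary endothelium and fat cells, was read in 18 of them (27584 against 65.8 CPM), Cd36, a fatty acid transporter, in 18, Gpihbp1 in 17, Pecam1 in 16 and Aqp1 in 15. Plin1, the lipid droplet coat of fat cells, was read in 0 of 22. The endothelial class held 8 of the 25 UMIs, 5.70 CPM (2.46 to 11.2), the cells past no gate 8 and the fibroblasts 0. In the young and old individual the 26 cells with Aqp7 held no Fabp4, Cd36 or Gpihbp1. There, 15 of 35 UMIs lay in cells past no gate, 7 of them in 1 cell. A further 12 lay in fibroblasts (5.01 CPM, 2.59 to 8.74) and 1 in endothelial cells.

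Aqp9 and Aqp11 were scarce in the 21 mice and plentiful in the young and old individual. Aqp9, a channel for water and small neutral solutes known from liver and epididymis, had 46 UMIs in the former and 748 in the latter. Of the 748, 388 lay in Lcn8/Lcn9 cells (28.3 CPM, 25.5 to 31.2, 336 of 1828 cells), 105 in Gpx5 cells (6.81 CPM, 5.57 to 8.25, 91 of 2019 cells) and 221 in cells past no gate. Basal cells of the same libraries held it in 0.224%, at a median depth of 2022 against 7584 in Lcn8/Lcn9 cells. Thinned to 1000 UMIs per cell, the shares were 3.07% in Lcn8/Lcn9 cells, 0.5% in Gpx5 cells and 0 of the basal cells. Among 102 cells with at least 2 Aqp9 UMIs, Cd52 was read in 93, Gpx5 in 84, Lcn8 in 69 and Crisp1 in 59. In cells of the same mice without Aqp9 the shares were 26.1%, 49.0%, 24.1% and 19.5%. The 102 cells were deeper (median 9105 UMIs against 1932), and Gpx5 stood at 43921 CPM in them against 37099.

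Aqp11 did not separate those epithelial classes. It stood at 16.7 CPM (14.6 to 19) in Lcn8/Lcn9 cells and 14.6 CPM (12.8 to 16.6) in Gpx5 cells, intervals that overlap. It was higher in endothelial cells of the same libraries, 46.3 CPM (37.1 to 57.2) from 86 UMIs in 73 of 804 cells. Endothelial cells of the 21 mice held 10.7 CPM (5.98 to 17.6) on 15 UMIs, and none of those 15 lay in the lymphatic part. Smooth muscle of the 21 mice held 7.89 CPM (4.41 to 13.0), and secretory cells 0.218 (0.154 to 0.301). Without the filter on low counts, Aqp7 and Aqp11 were called higher in endothelial cells as well (log2 difference 3.17, adjusted p = 2.46e-05, and 2.74, adjusted p = 3.34e-07), beside 12.1% of the genes tested in that fit.

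Cells that held more than 1 member were then counted, with no test. In the 21 mice, Aqp1 and Aqp3 were read together in 17 cells, of 961 and 411 cells with each. Aqp1 met Aqp11 in 34 of the 127 Aqp11 cells and Aqp7 in 15 of the 22 Aqp7 cells. Aqp9 met Aqp11 in 90 cells of the young and old individual, of 630 and 687.

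Genes of water and ion transport that work beside aquaporins were tested in the same contrasts, 9 of 15 passing the filter. In secretory cells 7 were called higher, beside 38.9% of all genes, and 2 lower, beside 38.5% (median log2 difference 1.89, against -0.06 over all genes), among them Atp1b1, the beta subunit of the sodium pump (3.27, SE 0.13), Car2, a carbonic anhydrase (2.93, SE 0.18), and Slc12a2 (2.34, SE 0.16). Basal cells had 6 higher and 1 lower (median 1.4, against -0.03), beside 32.4% and 30% of all genes. Prostate-like cells had 5 higher and 1 lower (0.63, against -0.05), beside 34.2% and 36.3%. Endothelial cells had 1 higher, Slc12a2 (0.66, SE 0.28), and 6 lower (median -1.25, against -0.11), beside 29.8% and 33%. In fibroblasts 2 were higher, Slc4a4, a sodium bicarbonate cotransporter (4.09, SE 0.23), and Ano1, a chloride channel (1.28, SE 0.18), and 5 lower, beside 32.5% and 24.2%. With library size in place of TMM scaling the median of all genes in the secretory contrast moved to -2.36, and with DESeq2 to -1.07, and Aqp1 stayed below it at -5.08 and -2.66. The list medians were not recomputed under those scalings. Of the glycerol and urea genes, 3 of 8 passed the filter. All 3 were called higher in endothelial cells (median log2 difference 1.71, against -0.11), beside 29.8% of all genes. They were Mgll, a monoacylglycerol lipase (4.40, SE 0.17), Lipe, hormone-sensitive lipase (1.71, SE 0.29), and Pnpla2, adipose triglyceride lipase (0.67, SE 0.18). In secretory cells Lipe was higher (1.43, SE 0.18), beside 38.9%, and 1 was lower, beside 38.5%. In prostate-like cells Lipe was higher (0.65, SE 0.23), beside 34.2%, and 1 was lower, beside 36.3%. Basal cells had 1 lower, beside 30%, and fibroblasts 2, beside 24.2%. With 3 genes tested, no share of this list is read.

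The members were then compared across age, rapamycin and diet within each class. In 20 fits the filter on low counts left 13 member tests, 5 of Aqp3 in basal cells, 5 of Aqp1 in endothelial cells and 3 of Aqp1 in fibroblasts. None was called by edgeR's quasi-likelihood test, 0 of 13, against 0% to 1.79% of all genes in the fits of these tests. DESeq2 called 0 too, and 1 of the 13 had an unadjusted p under 0.05. The high fat, low protein and caloric restriction comparisons share their control mice, and age and rapamycin share a fit.

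**Figure D4:**
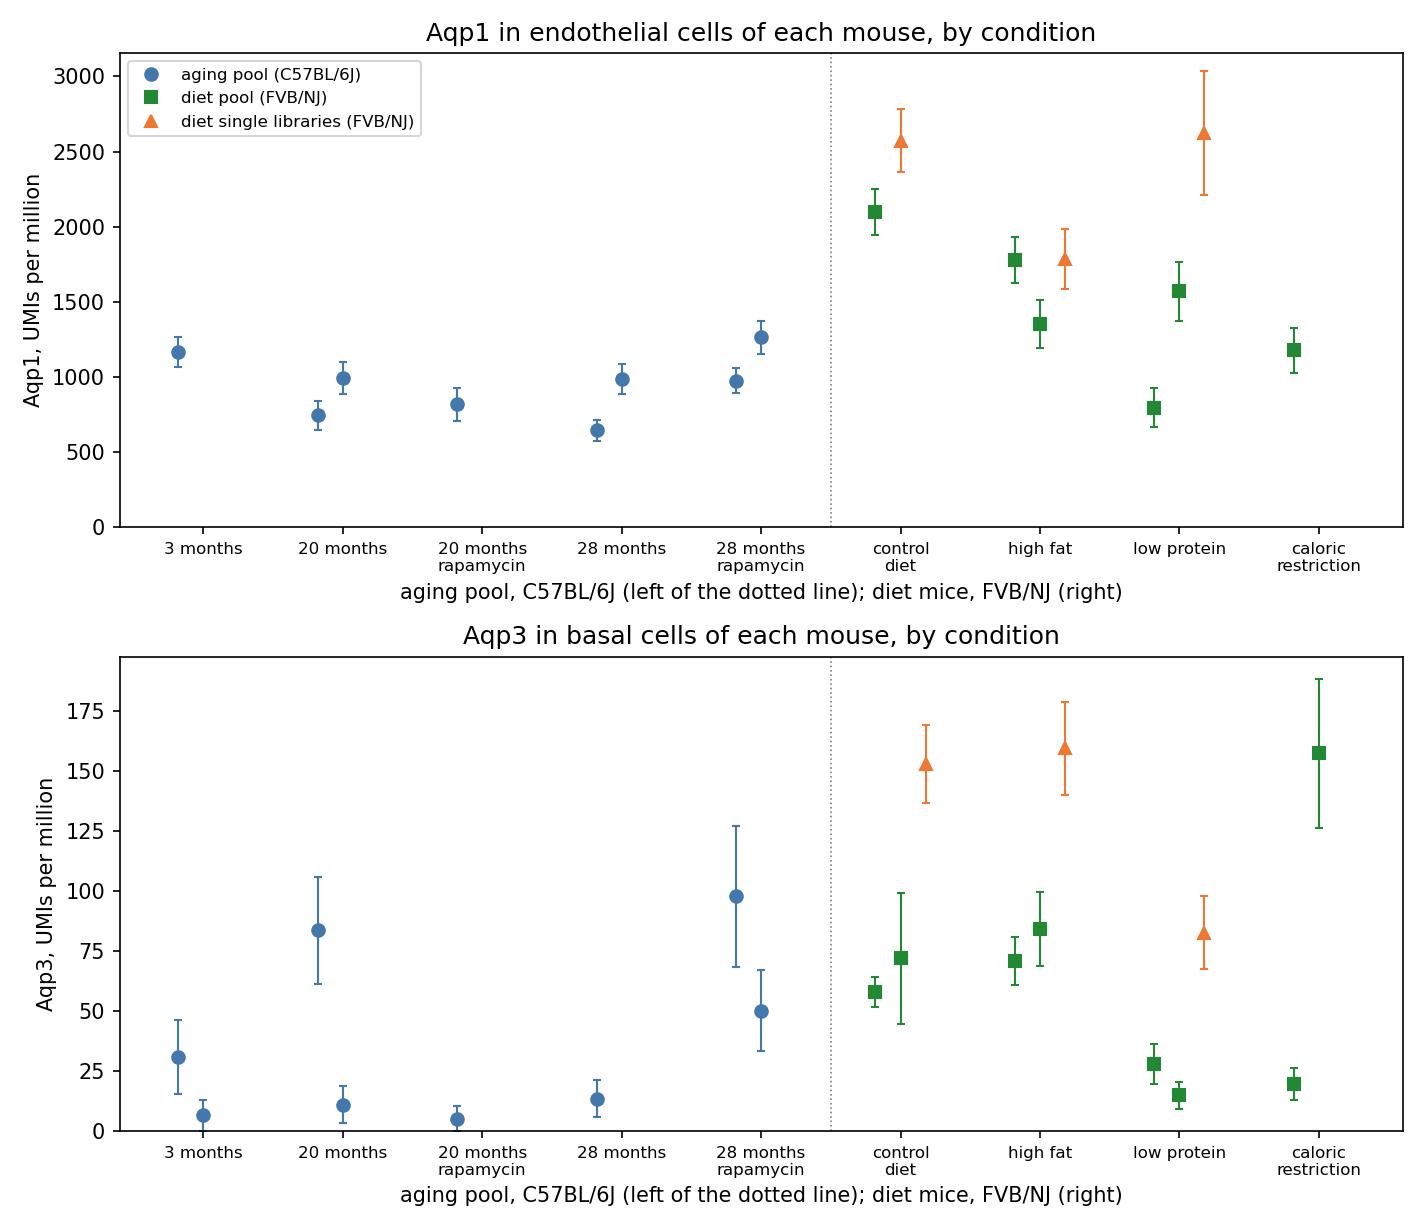
Aqp1 in endothelial cells (top) and Aqp3 in basal cells (bottom) of each mouse with at least 10 such cells, by condition, in CPM. Bars are the square root of the UMI count, counting error only. Endothelial Aqp1 runs from 645 to 1266 in the aging pool and from 796 to 2623 in the diet mice, and basal Aqp3 from 5.24 to 97.8 and from 14.9 to 159.

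In the aging pool, endothelial Aqp1 stood at 1168 CPM in the 1 usable mouse at 3 months. It stood at 746 and 994 CPM at 20 months and at 645 and 985 CPM at 28 months without rapamycin. With rapamycin it stood at 820 CPM at 20 months and at 977 and 1266 CPM at 28 months. The groups overlapped for rapamycin. The young mouse lay above all older mice without rapamycin and below the highest older mouse with it (1266 CPM). The fitted log2 difference was -0.48 (SE 0.38, adjusted p = 1) for age, beside 0% of genes called, and 0.25 (SE 0.28, adjusted p = 0.999) for rapamycin, beside 0%. Basal Aqp3 was 30.7 and 6.54 CPM at 3 months, 83.7 and 11 at 20 months and 13.5 at 28 months. With rapamycin it was 5.24 CPM at 20 months and 97.8 and 50.2 at 28 months. The log2 difference was 1.16 (SE 1.19, adjusted p = 0.952) for age, beside 0.0553% of genes called. Leaving out 1 mouse moved it between -0.56 (without mouse 1 at 20 months) and 3.12 (without the mouse at 28 months). For rapamycin it was -0.07 (SE 0.99, adjusted p = 0.995), beside 0.747%, and moved between -3.01 (without the mouse at 28 months) and 1.96 (without the rapamycin mouse at 20 months). The mice of a group lay as far apart as 6.54 and 30.7 at 3 months, and the groups overlapped. All basal cells of the aging pool held 45 Aqp3 UMIs, in 18 of 161 cells. The values of single mice therefore rest on few UMIs, and their spread also carries counting error.

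In the diet mice, endothelial Aqp1 was 2099 and 2574 CPM on the control diet. It was 1778, 1354 and 1788 CPM on the high fat diet, 796, 1570 and 2623 CPM on the low protein diet and 1179 CPM in the 1 usable mouse under caloric restriction. The log2 difference from control was -0.43 (SE 0.28) for high fat, beside 0% of genes called, -0.54 (SE 0.29) for low protein, beside 0%, and -0.65 (SE 0.41) for caloric restriction, beside 0.529%. Their adjusted p-values were 1, 0.999 and 0.788. All high fat and caloric restriction values lay below both control values, and the highest low protein value lay above them. How many of all genes lie in such an order was not counted.

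Basal Aqp3 was 57.9, 72.0 and 153 CPM on the control diet and 70.9, 84.1 and 159 CPM on the high fat diet. On the low protein diet it was 28.0, 14.9 and 82.7 CPM, and under caloric restriction 19.7 and 157 CPM. In each of the 3 diets with a single library, that library held the highest value. The log2 difference was -1.19 for low protein (SE 0.43, unadjusted p = 0.0132, adjusted p = 1, beside 0% of genes called). It was 0.24 (SE 0.36, adjusted p = 1) for high fat, beside 0%, and 0.10 (SE 0.53, adjusted p = 0.968) for caloric restriction, beside 1.79%. Without mouse 2 under caloric restriction the last was -1.59, and without mouse 1 it was 1.43. Within the diet pool both low protein values lay below both control values, and among the single libraries 82.7 lay below 153. The share of all genes with such an order was not counted. With no filter on low counts the low protein difference was called (adjusted p = 0.0108), 1 of 23 genes called in that fit.

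Aqp1 in fibroblasts stood at 15.0, 141 and 47.8 CPM on the control diet, 61.9, 94.5 and 47.4 on high fat, 39.7, 32.6 and 0 on low protein and 19.7 and 37.5 under caloric restriction, which overlap. The log2 difference was 0.54 (SE 0.57, adjusted p = 1, -0.51 without control mouse 1) for high fat and -0.64 (SE 0.71, adjusted p = 1) for low protein, beside 0% of genes called in each. For caloric restriction it was -0.84 (SE 0.64, adjusted p = 0.749), beside 0.687%. These fits held 8 mice of the aging pool and 9 to 11 diet mice and gave standard errors of 0.28 to 1.19.

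The young and old individual were last set against the 3 diet single libraries, all FVB/NJ. The young individual and the control diet library carry the same labels of strain, age (3 months) and diet, so the differences between these 2 do not go with those labels. Run, preparation and the tissue that was taken go together and cannot be told apart. Over all cells, Aqp9 stood at 8.22 and 14.9 CPM in the young and old individual, and at 0.130, 0.0779 and 0 CPM in the control, high fat and low protein libraries. Aqp11 stood at 16.0 and 12.3 CPM against 0.410, 0.441 and 0.168. Both were called higher in the young and old individual (log2 difference 4.67, SE 0.59, adjusted p = 0.000469, and 2.72, SE 0.30, adjusted p = 0.000257). Aqp7 was called too (adjusted p = 0.0252), with 23 and 12 UMIs against 0 in all 3 libraries, so no fold is given. Its call was lost with DESeq2 (adjusted p = 0.0733), without the control library (0.0595) and without the high fat library (0.0536). Of the 15485 genes tested, 32.8% were called higher and 26.3% lower. Aqp7 and Aqp9, the latter with 6, 3 and 0 UMIs in the diet single libraries, passed the filter on low counts through the group where they were high. No share of members called is therefore read.

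**Figure D5:**
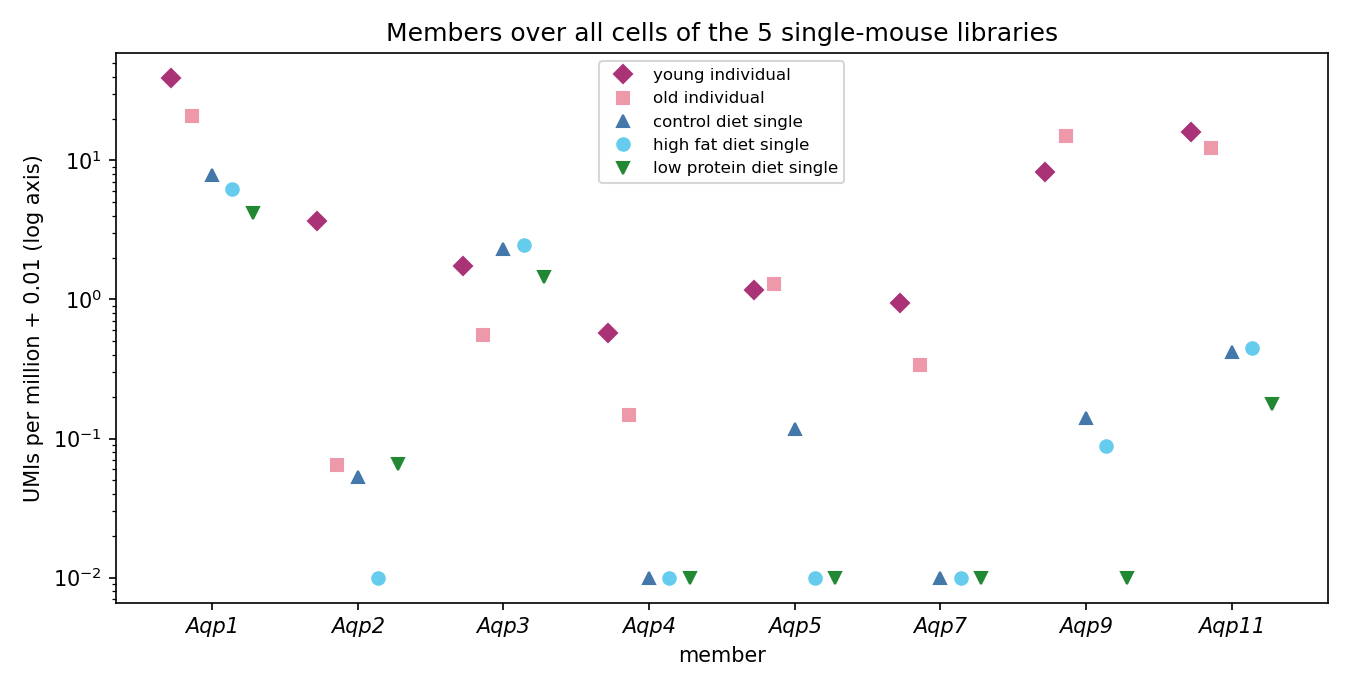
The 8 aquaporin genes over all cells of the 5 single-mouse libraries, in CPM plus 0.01 on a log axis, 1 point per library. Points at 0.01 are 0 UMIs. Aqp9 and Aqp11 in the young and old individual (8.22 to 16.0) lie above the 3 diet single libraries (at most 0.441), while Aqp3 does not.

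Aqp3 was called lower, at 1.73 and 0.547 CPM against 2.31, 2.44 and 1.43 (log2 difference after scaling -3.54, SE 0.46, adjusted p = 0.000524). With library size it was -0.90 and not called (adjusted p = 0.122). Values over all cells depended on the scaling. Aqp1 stood at 39.1 and 20.7 CPM against 7.88, 6.18 and 4.18, yet its scaled log2 difference was -0.34 (SE 0.28, adjusted p = 0.331), and with library size in place of the scaling it was 2.29 and called (adjusted p = 0.000289). With library size the median of all genes moved from 0.14 to 2.77, and Aqp1 lay below it. Without the young individual the scaled difference was -0.80 and called (adjusted p = 0.0193), and without the old individual it was 0.016.

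In basal cells Aqp3 was 5.78 and 2.64 CPM in the young and old individual, against 153, 159 and 82.7 in the control, high fat and low protein libraries (log2 difference -4.93, SE 0.32, adjusted p = 3.21e-08). Basal Aqp1 was lower as well (-3.60, SE 0.68, adjusted p = 0.00104), 2 of 2 members tested, beside 13% of genes called lower. In endothelial cells Aqp1 was 436 and 401 CPM against 2574, 1788 and 2623 (-2.47, SE 0.24, adjusted p = 1.78e-08), beside 10.2%. In fibroblasts it was 12.0 and 10.5 CPM against 47.8, 47.4 and 0 (-1.79, SE 0.50, adjusted p = 0.0119), beside 11.3%, a call lost without the filter (adjusted p = 0.241), with DESeq2 (0.276) and without the control or the high fat library. The groups did not overlap for Aqp3 in basal cells or for Aqp1 in endothelial cells. How many of all genes separate these few libraries in the same way was not counted. The gates used the same marker genes in both sets, and whether they held the same cells was not tested.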

How the data were processed

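Single-cell libraries (10x Genomics 3′ kit) of 23 mice were taken as deposited, as raw UMI counts in 1 table per mouse, made with Cell Ranger 6.0.1 for the pools and 3.1.0 for the single-mouse libraries per the file headers (mm10; Seurat is named for later steps). The conditions of mice inside a pool come from the names of their tables and the tag configuration. A cell was kept with 500 or more genes and 200 or more UMIs, if mitochondrial UMIs made up no more than 10%, a looser mitochondrial limit than the study states. The 30406 genes of both references were used. Cells past more than 1 marker gate were left out of the classes, and no doublet caller was run. UMIs were summed per mouse and class (at least 10 cells) and tested with edgeR 4.0.16 (R 4.3.3; quasi-likelihood, TMM, filterByExpr, Benjamini-Hochberg over all genes tested, called at 0.05), with a term for each mouse between classes. A share of cells was also taken after thinning to 1000 UMIs per cell, with shallower cells left out of that share. DESeq2 1.42.0, library size, no filter, other gates, left-out mice and other limits were alternatives. Mice of a group were separate animals, single libraries 1 mouse each. The test was checked on simulated counts: 178 of 180 genes changed by 2 on the log2 scale were recovered for the endothelial contrast (5756 genes), 74 of 193 for high fat diet in basal cells (5520 genes) and 37 of 191 for the comparison of single libraries (14946 genes). The rule named every member, with transport and glycerol genes as lists. Members, lists and gates were chosen with earlier results of these data known.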

Additional observations from a re-analysis of the deposited data

Results flagged for a closer look

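In cells past no gate of the 21 mice, 7 members had more UMIs than the 3 that a count of 0 allows: 1436 of Aqp1, 385 of Aqp2, 191 of Aqp3, 62 of Aqp5, 44 of Aqp11, 21 of Aqp9 and 8 of Aqp7. These cells enter no comparison between classes. Aqp9 had 388 UMIs in Lcn8/Lcn9 cells and 105 in Gpx5 cells of the young and old individual, and Aqp11 had 229 and 225, in classes that no cell of the other mice passed. Aqp6, a family member outside the 8, had 16 UMIs in the 215 cells of these libraries that passed a gate on Atp6v1b1, Atp6v0d2 and Foxi1, genes of acid-secreting cells. What these signals come from was not tested.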

How the results depend on the processing

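The class contrasts of Aqp1 in endothelial, secretory and prostate-like cells kept their direction and call under all 11 alternatives, 1 of them added after the values were seen (without the mice under caloric restriction), and that of Aqp3 in basal cells under the 10 that could be fitted, since with doubled gates Aqp3 did not pass the filter. Members called moved from 1 (secretory), 1 (prostate-like), 2 (basal), 1 (endothelial) and 0 (fibroblast). Without the filter they were 2 in secretory, 2 in prostate-like, 3 in endothelial and 1 in fibroblast cells. With DESeq2 they were 3 in prostate-like and 2 in endothelial cells. With library size they were 1 in basal and 2 in fibroblast cells, with doubled gates 0 and 1, and with no mouse term (no replicate block) 1 and 1. With all 23 mice they were 2 in endothelial and 1 in fibroblast cells, and without the mice under caloric restriction 1 in basal and 1 in fibroblast cells. The share of all genes called over these contrasts was 56.7% to 77.4% at first, 28.3% to 44.4% without the filter, 35.7% to 64.5% with DESeq2, 63.4% to 94.0% with library size and 51.2% to 80.4% under the others named. Without the filter, 1 member was called for low protein diet in basal cells (Aqp3, of 23 genes called). In fibroblasts 1 was called for low protein diet (of 33) and 1 for caloric restriction (of 181). Neither call in fibroblasts was of Aqp1. The other members held at most 27 UMIs in fibroblasts of the 21 mice (Aqp3), so these calls lie near the floor. Between the single libraries, doubled gates left 1 member called in basal cells. In fibroblasts no filter and DESeq2 left 0, as did doubled gates, with no member past the filter, and leaving out 1 library gave 0 to 1.

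Reversed differences were all uncalled in the first fit. Aqp3 turned to -1.13 (library size), -0.69 (DESeq2) and -0.23 (all 23 mice) in secretory cells, to 0.34 (library size) in prostate-like cells and to -0.35 (DESeq2) in fibroblasts. Basal Aqp3 turned to 0.16 for rapamycin with library size and to -0.11 for caloric restriction with halved gates. Aqp1 in fibroblasts turned to 0.29 for low protein diet with doubled gates, and over all cells of the single libraries to 2.29 with library size. Leaving out 1 mouse moved basal Aqp3 between -0.56 and 3.12 for age (lowest without 20-month mouse 1), between -3.01 and 1.96 for rapamycin and between -1.59 and 1.43 for caloric restriction (lowest without mouse 2 of that group), and fibroblast Aqp1 between -0.51 and 1.05 for high fat diet. Leaving out 1 library moved Aqp1 over all cells between -0.80 and 0.016. The cause was not tested.

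With the mouse number as a replicate block, basal Aqp3 was 1.07 for rapamycin and -0.045 for caloric restriction, and 0 members were called in 20 fits. In the first fits 13 of the 20 had a member past the filter, and a fit without one can only give 0. The numbers do not pair mice: deviations of same-numbered mice correlated over 0.1 in 7 of 30 pairs in the aging pool (-0.32 to 0.29) and in 6 of 18 in the diet pool (-0.31 to 0.31). Of the counts of members called, 409 stayed within 1.5 times, 15 rose and 10 fell. Leaving out 1 of the 3-month mice (endothelial, aging pool) or 1 of the caloric restriction mice (endothelial) could not be fitted. Members other than Aqp1 and Aqp3 are limited by depth, with at most 401 UMIs each in the 21 mice.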

Other observations

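Aqp6, an anion-permeable family member known from acid-secreting cells of the kidney, had 133 UMIs in the young and old individual and 3 in the 21 mice. It stood at 1.73 and 2.46 CPM in the young and old individual and at 0 UMIs in the 3 diet single libraries. In the cells past the gate on Atp6v1b1, Atp6v0d2 and Foxi1 it was read in 14 of 215 cells (6.51%), 29.1 CPM. Its level was 8.94 CPM in cells past no gate, which held 83 of its UMIs, 0.804 in smooth muscle, 0.649 in Gpx5 cells, 0.583 in Lcn8/Lcn9 cells, 0.417 in fibroblasts and 0.327 in basal cells, on at most 10 UMIs in each of these 5 classes, and 0 in endothelial and immune cells.

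Aqp8, a water and ammonia channel, had 24 UMIs in the 21 mice, 19 of them in secretory cells. Secretory cells held most of the UMIs of these mice (169513294), so the count of 19 does not set them apart. In prostate-like cells Aqp8 had 2 UMIs in 1 mouse and 3 in another, each in 1 cell. Mip and Aqp12 had 1 and 3 UMIs.

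The ungated cells with 5 or more Aqp1 UMIs also differed between the sets. In the young and old individual there were 21 such cells, with Selp read in 15 and Sele in 11, adhesion genes of venules, against 1.49% and 0.447% of the ungated cells without Aqp1. In the 21 mice Gpihbp1, a capillary gene, headed the same ranking. In the young and old individual, Gstm5, Hsbp1, Sh3glb1 and Tubb4b were among the 10 leading genes both of the 26 cells with Aqp7 and of the 70 cells with at least 2 UMIs of Aqp11. The most Aqp11 UMIs in a cell of these libraries was 38, and in the 21 mice 5. These genes were chosen after their values were seen, and nothing was tested.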
